A study of Homo sapiens with 12 samples.

Results

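The long-chain acyl-CoA synthetase (ACSL) family was described in MDA-MB-231 and HCC70, human breast cancer lines of the triple-negative class, exposed to JQ1. JQ1 competes with acetylated histones for the bromodomains of the BET proteins and so loosens these co-activators from chromatin. The family was taken by gene name as ACSL1, ACSL3, ACSL4, ACSL5 and ACSL6. Of these 5 genes 4 were measured, among 14884 genes tested in all, and ACSL3 was not analysed here. The family was chosen by the measured fall of ACSL5 under JQ1 in these same arrays, so the JQ1 values of ACSL5 are given as a description, without a test. The other 3 genes were listed by family name, and the question asked of them was whether ACSL5 fell alone or whether its relatives rose.

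The groups were MDA-MB-231 JQ1, MDA-MB-231 Control, HCC70 JQ1 and HCC70 Control, with 3 Human Gene 2.0 ST arrays in each. JQ1 was given at 500 nM and the Control groups had the vehicle, DMSO at 0.1%, and RNA was taken after 72 hours. Each array measured 150 ng of total RNA from a whole culture. Whether replicate arrays stem from separately grown cultures is not stated in the labels, so each p-value measures only the spread between these samples. MDA-MB-231 and HCC70 are established lines, and all arrays of a line share its genotype.

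ACSL enzymes join long-chain fatty acids to coenzyme A, using ATP, which traps the fatty acid in the cell and makes it usable. The acyl-CoA product can be burned in mitochondria and peroxisomes, built into triglycerides and membrane phospholipids, or split again by thioesterases. The family members differ in the fatty acids they prefer and in the membranes they sit on. ACSL1 is the main form of heart, liver and fat, ACSL4 prefers arachidonic and related polyunsaturated acids, ACSL5 is abundant in the intestinal epithelium and lies on mitochondrial and endoplasmic reticulum membranes, and ACSL6 is known from brain and blood cells.

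The stretches before the transcription starts are shown for the gene that fell under JQ1 and, for comparison, for relatives that changed little. The 250 bases before each start were taken from RefSeq (GRCh38.p14), which lists 2 starts for ACSL5, 5 for ACSL1, 1 for ACSL4 and 7 for ACSL6. In the sequences, written 5′ to 3′ on the strand of the gene, capitals mark each CG dinucleotide. The lines below give both ACSL5 windows, at chr10:112375018-112375267 and chr10:112375955-112376204 on the plus strand. The ACSL1 window with the most CG dinucleotides follows, at chr4:184825969-184826218, and then the ACSL4 window, at chrX:109733258-109733507, both on the minus strand.
ACSL5 start 1: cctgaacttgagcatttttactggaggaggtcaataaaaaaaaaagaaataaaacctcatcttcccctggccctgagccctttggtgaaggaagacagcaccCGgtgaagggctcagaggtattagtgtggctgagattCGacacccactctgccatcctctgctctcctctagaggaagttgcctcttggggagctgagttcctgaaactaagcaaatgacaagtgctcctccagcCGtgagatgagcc
ACSL5 start 2: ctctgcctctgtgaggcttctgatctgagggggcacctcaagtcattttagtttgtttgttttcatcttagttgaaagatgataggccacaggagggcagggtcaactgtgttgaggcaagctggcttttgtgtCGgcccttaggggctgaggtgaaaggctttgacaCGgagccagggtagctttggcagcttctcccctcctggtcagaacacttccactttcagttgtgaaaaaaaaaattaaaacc
ACSL1 start 1: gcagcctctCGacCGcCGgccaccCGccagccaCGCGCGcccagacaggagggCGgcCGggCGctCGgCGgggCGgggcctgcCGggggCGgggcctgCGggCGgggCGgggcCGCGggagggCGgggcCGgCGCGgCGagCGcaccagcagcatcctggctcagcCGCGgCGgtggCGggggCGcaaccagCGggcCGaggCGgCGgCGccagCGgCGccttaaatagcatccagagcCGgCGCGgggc
ACSL4 start 1: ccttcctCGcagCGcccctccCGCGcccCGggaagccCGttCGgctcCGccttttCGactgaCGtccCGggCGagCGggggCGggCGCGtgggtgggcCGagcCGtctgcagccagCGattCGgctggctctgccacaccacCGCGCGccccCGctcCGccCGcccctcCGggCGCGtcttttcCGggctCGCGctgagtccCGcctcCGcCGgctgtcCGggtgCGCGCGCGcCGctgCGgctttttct

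The ACSL5 windows held 3 and 2 CG dinucleotides, with 50% and 48.8% G or C. Over 35116 such windows of annotated genes the median was 11 CG dinucleotides, with quartiles of 3 and 23. The ACSL4 window held 42, more than 98.6% of all windows, and the printed ACSL1 window held 41. The other ACSL1 starts were CG-poor, so the 5 ACSL1 windows ran from 4 to 41, and the 7 ACSL6 windows ran from 2 to 31. The signal of a gene on these arrays does not tell its starts apart.

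Each window was searched on both strands for 5 motifs: CACGTG (bound by MYC and related factors), TGACTCA (AP-1), TGACGTCA (CREB), AGGTCA (a half-site of nuclear receptors, among them the PPAR proteins) and TATAAA. ACSL5 start 1 held AGGTCA, from 223 to 218 bases before the start, a motif present in 12.1% of all windows. ACSL5 start 2 and the ACSL4 window held none of the 5. TGACTCA, present in 4.20% of all windows, occurred in the fifth ACSL1 window, and AGGTCA occurred in 2 overlapping ACSL6 windows. The shares for the motifs not found were 6.34% for CACGTG, 1.65% for TGACGTCA and 10.7% for TATAAA. These matches describe the letters only, and binding was not measured.

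The arrays were alike within their groups, with correlations of 0.989 to 0.995 over all genes, against 0.962 to 0.978 for a JQ1 array with a Control array of the same line. The array medians lay between 6.16 and 6.26 on the deposited log2 scale. Every JQ1 median (6.16 to 6.19) lay below every Control median (6.22 to 6.26). Replicate 3 of MDA-MB-231 JQ1, MDA-MB-231 Control and HCC70 JQ1 had lower upper quartiles (7.51, 7.62 and 7.63) than the other replicates of their groups, and results that change without these 3 arrays are given with and without them. Between the Control groups 5 of 7 measured epithelial markers were called higher and 1, KRT18, lower in HCC70 (log2 difference -0.28). All 4 measured mesenchymal markers were called lower. Of all genes 47% were called in this comparison (23.8% higher and 23.2% lower). The largest differences (HCC70 minus MDA-MB-231) were 6.52 for ESRP1 and 5.18 for GRHL2 among the epithelial markers, and -6.86 for AXL among the mesenchymal ones. The progesterone receptor PGR was dimmer than the lower quartile in every group, ESR1 averaged 4.89 to 5.09, and ERBB2 was not analysed here. Of 8 blood cell markers 3 were measured, with summed log2 levels of 17.7 to 18.3 in HCC70 JQ1 and 18.1 to 18.6 in HCC70 Control, and of 15.5 to 15.8 in MDA-MB-231 JQ1 and 15.5 to 16.1 in MDA-MB-231 Control. LYZ lay below the lower quartile throughout, CD14 averaged 8.14 in HCC70 JQ1 and 8.52 in HCC70 Control, and 1 of the 3 was called lower with JQ1 in each line: CD14 in HCC70 (log2 change -0.38, limma adjusted p = 0.0118) and CSF1R in MDA-MB-231 (-0.45, adjusted p = 0.0317). Both calls were lost without single arrays, at adjusted p up to 0.0614 for CD14 and 0.138 for CSF1R. Of 10 stromal, endothelial and fat markers 6 were measured and 0 changed by limma with JQ1 in either line (1 and 0 at an unadjusted p under 0.05). PECAM1, DCN and LUM lay below the lower quartile in every group. With JQ1, 27.8% of all genes were called in MDA-MB-231 and 21.7% in HCC70.

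JQ1-treated cells of both lines had far less ACSL5 signal than their Controls. In MDA-MB-231 the log2 signals of ACSL5 were 6.08, 6.19 and 6.03 on the JQ1 arrays, against 9.00, 9.10 and 8.90 on the Control arrays. The groups did not overlap, and 2.71 log2 units separated the highest JQ1 array from the lowest Control array. The means were 6.10 ± 0.082 in JQ1 and 9.00 ± 0.10 in Control (SD, n = 3 each), a log2 change of -2.90 ± 0.11 (SE), or 7.46-fold lower. Arrays of the same replicate number differed by -2.92, -2.91 and -2.87, so the 3 pairs were alike.

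In HCC70 the ACSL5 signals were 6.27, 5.90 and 5.91 on the JQ1 arrays, against 9.23, 9.21 and 9.13 on the Control arrays. The groups were again separated, here by 2.86 log2 units, and JQ1 replicate 1 lay above the other two. The means were 6.03 ± 0.21 in JQ1 and 9.19 ± 0.052 in Control (SD, n = 3 each), a log2 change of -3.16 ± 0.11 (SE), or 8.94-fold lower. Each array measures RNA from a whole culture, so fewer cells that express a gene and less RNA per cell cannot be told apart, for ACSL5 or any gene below.

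**Figure D1:**
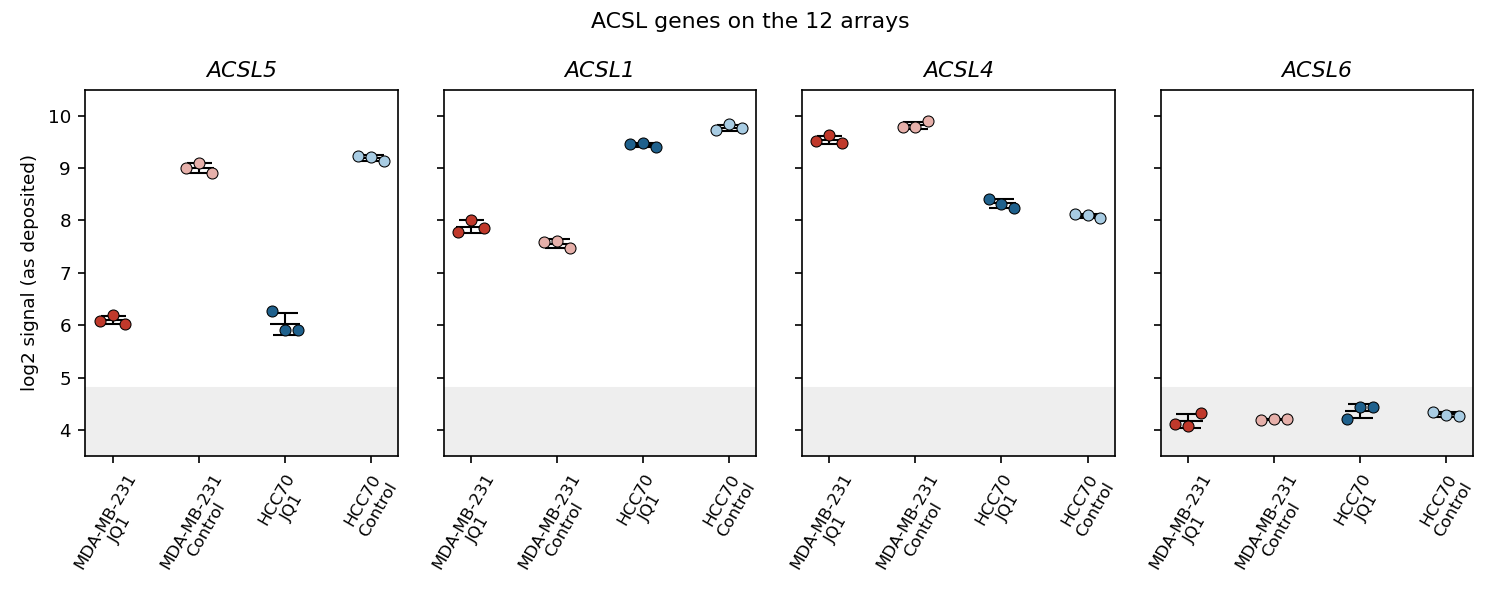
Log2 signal as deposited (vertical axis) of the 4 measured ACSL genes on each of the 12 arrays, with points for arrays, bars for the group mean and SD (n = 3), and grey for levels below the mean lower quartile of the genes. ACSL5 lies near 6 in both JQ1 groups and near 9 in both Control groups, ACSL1 and ACSL4 are set apart by line, and ACSL6 lies in the grey range on all 12 arrays.

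The ACSL5 signal stood between percentiles 44.3 and 51.9 of the genes on the JQ1 arrays of both lines and between percentiles 90.4 and 92.0 on the Control arrays. Under JQ1 it thus lay in the middle of the distribution, above the lower quartile on every array. The change ranked 7 among the falls of all 14884 genes in MDA-MB-231 and 14 in HCC70. A fall of at least 2 log2 units occurred in 87 genes in MDA-MB-231 and in 42 genes in HCC70, and 3 genes met it in both lines: ACSL5, the secreted mucosal glycoprotein DMBT1 and the RNA-sensing receptor TLR3. A fall of at least 1 log2 unit was seen in 3.55% of all genes in MDA-MB-231 and in 1.96% in HCC70, which is the background against which ACSL5 was picked.

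The ACSL5 log2 change was -2.90 in MDA-MB-231 and -3.16 in HCC70. The difference of -0.26 ± 0.15 (SE; HCC70 minus MDA-MB-231) is a description, since ACSL5 was chosen for these falls. In the order of the group means HCC70 Control came first, then MDA-MB-231 Control, MDA-MB-231 JQ1 and HCC70 JQ1. The JQ1 arrays of the lines overlapped in ACSL5 level. The Control arrays did not overlap, by a margin of 0.031, and the difference of 0.19 ± 0.11 (SE, HCC70 Control minus MDA-MB-231 Control) did not pass the test (limma adjusted p = 0.17, 95% interval -0.04 to 0.42).

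**Figure D2:**
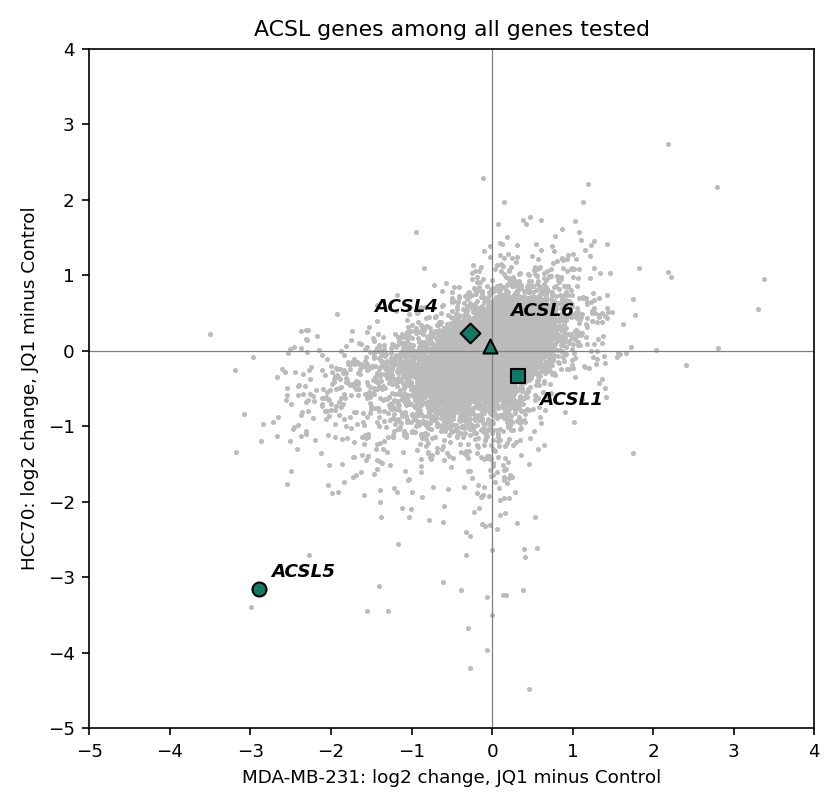
Log2 change of each of the 14884 genes tested, JQ1 minus Control, in MDA-MB-231 (horizontal axis) and HCC70 (vertical axis), with grey points for genes and green symbols for the ACSL genes. ACSL5 lies at -2.90 and -3.16, and ACSL1, ACSL4 and ACSL6 lie within 0.4 of 0 on both axes.

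The relatives moved by 0.33 log2 units or less, and not in a common direction. Of the 3 relatives measured, 1 rose and 1 fell in MDA-MB-231, where 27.8% of all genes were called (10.8% higher and 17% lower). In HCC70 0 rose and 1 fell, where 21.7% of all genes were called (9.18% higher and 12.5% lower). A call is a limma adjusted p under 0.05 over all genes. With 3 genes these counts were not set against the background by a test. Where groups did not overlap, this is given as a description, without the share of all genes that did the same.

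ACSL1, the form best known for supplying fatty acid oxidation in heart and triglyceride synthesis in fat and liver, moved in opposite directions in the lines. In MDA-MB-231 its log2 signals were 7.78, 8.01 and 7.85 on the JQ1 arrays, against 7.59, 7.62 and 7.47 on the Control arrays. All 3 JQ1 arrays were above all 3 Control arrays. The means were 7.88 ± 0.12 in JQ1 and 7.56 ± 0.080 in Control (SD, n = 3 each), and ACSL1 rose by 0.32 ± 0.086 (SE; 1.25-fold, limma adjusted p = 0.013). The call ended without MDA-MB-231 JQ1 replicate 2 (log2 change 0.26, adjusted p = 0.0612), with MDA-MB-231 fitted alone (0.0606) and without the replicate 3 arrays of both MDA-MB-231 groups and HCC70 JQ1 (log2 change 0.29, adjusted p = 0.0613), and quantile normalization gave a larger change of 0.49.

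In HCC70 the ACSL1 signals were 9.47, 9.47 and 9.40 on the JQ1 arrays, against 9.73, 9.84 and 9.76 on the Control arrays. All 3 JQ1 arrays were below all 3 Control arrays. The means were 9.45 ± 0.041 in JQ1 and 9.77 ± 0.059 in Control (SD, n = 3 each), and ACSL1 fell by 0.33 ± 0.086 on the log2 scale (SE; 1.26-fold lower, limma adjusted p = 0.0145). The call ended without HCC70 Control replicate 2 (log2 change -0.30, adjusted p = 0.0635).

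The JQ1 effects on ACSL1 differed by -0.65 ± 0.12 (SE; HCC70 minus MDA-MB-231, limma adjusted p = 0.00285), in a test in which 15% of all genes were called (9.02% higher and 5.95% lower). ACSL1 was 4.65-fold higher in HCC70 Control than in MDA-MB-231 Control, a log2 difference of 2.22 ± 0.086 (SE, adjusted p = 3.31e-10), where 47% of all genes were called (23.8% higher and 23.2% lower). Between the JQ1 groups the mean of HCC70 exceeded that of MDA-MB-231 by 1.57 log2 units, so the lines lay closer in ACSL1 under JQ1. In the order of the 4 group means no ACSL1 group overlapped its neighbour, and the narrowest gap was 0.161, between the MDA-MB-231 groups.

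ACSL4, which channels arachidonic and other polyunsaturated acids into phospholipids and is required for ferroptosis in many cell types, fell slightly in MDA-MB-231 and did not pass the test in HCC70. In MDA-MB-231 its log2 signals were 9.52, 9.63 and 9.48 on the JQ1 arrays, against 9.78, 9.78 and 9.90 on the Control arrays. The groups did not overlap. The means were 9.54 ± 0.075 in JQ1 and 9.82 ± 0.066 in Control (SD, n = 3 each), and ACSL4 fell by 0.28 ± 0.082 on the log2 scale (SE; 1.21-fold lower, limma adjusted p = 0.0231). This call was lost in 8 of 21 alternatives, among them centring each array on its median (log2 change -0.21, adjusted p = 0.0849) and leaving out MDA-MB-231 JQ1 replicate 1 (adjusted p = 0.0627), JQ1 replicate 3 (0.0757), Control replicate 3 (0.0630) or the 3 arrays together (log2 change -0.21, adjusted p = 0.114).

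In HCC70 the ACSL4 signals were 8.42, 8.32 and 8.24 on the JQ1 arrays, against 8.12, 8.11 and 8.05 on the Control arrays. Here the JQ1 arrays were all above the Control arrays. The means were 8.32 ± 0.091 in JQ1 and 8.09 ± 0.039 in Control (SD, n = 3 each), and the log2 change of 0.23 ± 0.082 (SE, 95% interval 0.06 to 0.41) did not pass the test (limma adjusted p = 0.0603). It passed in 6 of 21 alternatives, among them centring (log2 change 0.30, adjusted p = 0.0221) and leaving out HCC70 JQ1 replicate 3 (0.28, adjusted p = 0.0482) or the 3 arrays together (0.28, adjusted p = 0.035).

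The JQ1 effects on ACSL4 differed by 0.51 ± 0.12 (SE; HCC70 minus MDA-MB-231, limma adjusted p = 0.00958), opposite in sign to the difference for ACSL1. ACSL4 was 3.31-fold lower in HCC70 Control than in MDA-MB-231 Control, a log2 difference of -1.73 ± 0.082 (SE, adjusted p = 1.97e-09). Between the JQ1 groups the difference of the means was -1.22, so the lines lay closer in ACSL4 under JQ1 too. For both genes the difference of the effects and the difference between the Control groups passed the test in all 20 alternatives tried.

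ACSL6, the form of brain and blood cells, was dim in both lines and did not pass the test in any comparison. Its log2 signals in MDA-MB-231 were 4.11, 4.07 and 4.32 in JQ1, against 4.19, 4.20 and 4.21 in Control. In HCC70 they were 4.21, 4.44 and 4.44 in JQ1, against 4.34, 4.28 and 4.26 in Control. The groups overlapped in both lines, and all 12 arrays placed ACSL6 below the lower quartile of the genes. The log2 changes were -0.03 ± 0.092 in MDA-MB-231 (SE, 95% interval -0.23 to 0.17, limma adjusted p = 0.849) and 0.07 ± 0.092 in HCC70 (-0.13 to 0.27, adjusted p = 0.704). The sign in MDA-MB-231 turned to 0.03 after centring.

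**Figure D3:**
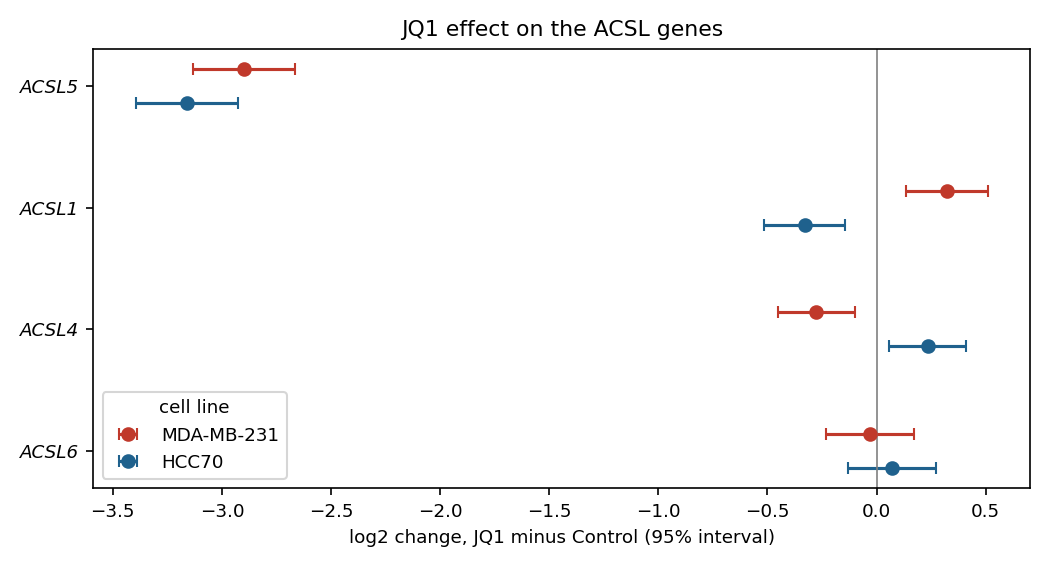
Log2 change of each ACSL gene, JQ1 minus Control (horizontal axis), in MDA-MB-231 (red) and HCC70 (blue), with points for the estimate and bars for its 95% interval (n = 3 arrays in each group). The intervals of ACSL5 lie below -2 in both lines, those of ACSL1 and ACSL4 lie on opposite sides of 0 in the lines, and those of ACSL6 include 0. The ACSL5 intervals are a description and no test, since the gene was chosen for its fall.

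The genes whose 12 values were most like those of ACSL5 had lower means in JQ1 than in Control in both lines. By Pearson correlation over the 12 arrays, which fall into 4 groups, the nearest were UBA7, an activating enzyme of the ubiquitin-like protein ISG15 (r = 0.996), the adaptor SORBS2 (0.989), the SUMO protease SENP1 (0.989), the Tudor-domain protein TDRD3 (0.986) and XAF1 (0.985). Their own JQ1 changes were smaller than those of ACSL5. UBA7 changed by -1.46 in MDA-MB-231 and -1.63 in HCC70, and XAF1 by -1.92 and -1.87 in the same order of lines, all on the log2 scale. The correlation mostly reflects the group means, so it is given as a description.

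The nearest profiles of ACSL1 and ACSL4 followed the lines first. For ACSL1 these were the actin-binding profilin PFN2 (r = 0.998), the mitochondrial dehydrogenase subunit DHTKD1 (0.997) and the retinal reductase DHRS3 (0.997). DHRS3 changed by 0.63 in MDA-MB-231 and by -0.55 in HCC70, the same pair of signs as ACSL1. For ACSL4 they were the ceramide glucosyltransferase UGCG (r = 0.997), the nuclear import receptor IPO7 (0.995) and the checkpoint protein RAD17 (0.994). UGCG changed by -0.43 in MDA-MB-231 and by 0.25 in HCC70.

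The tested genes on either side of ACSL5 in RefSeq gene order did not pass the test with all arrays. TECTB, which encodes a protein of the inner ear and lies before ACSL5 with 3 genes not analysed here between them, changed by 0.42 ± 0.15 in MDA-MB-231 (SE, limma adjusted p = 0.056) and by 0.17 ± 0.15 in HCC70 (adjusted p = 0.52). The TECTB group means, from 4.15 to 4.58, lay below the lower quartiles of the arrays (4.73 to 4.87). Dim signal thus limits what could be seen for TECTB. VTI1A, a SNARE protein of vesicle traffic that lies after ACSL5 with 1 gene not analysed here between them, changed by -0.18 ± 0.11 in MDA-MB-231 (adjusted p = 0.243) and by 0.17 ± 0.11 in HCC70 (adjusted p = 0.328). In MDA-MB-231 both passed without Control replicate 3, TECTB at 0.56 (adjusted p = 0.0176) and VTI1A at -0.32 (adjusted p = 0.0163). TECTB also passed there with the replicate block (0.0312), after centring (0.0292) and without JQ1 replicate 1 (0.0206), and VTI1A without the 3 arrays together (-0.28, adjusted p = 0.0301).

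Of the other measured enzymes that make acyl-CoA, few or none were called. The counts of this and the following lists stand beside the share of all genes called, 10.8% higher and 17% lower in MDA-MB-231 and 9.18% higher and 12.5% lower in HCC70. Here and below, the genes named from a list are those with the smallest p in a direction whose call held in all alternatives tried. Of 20 further acyl-CoA synthetases listed, for short, medium, bubblegum-type and very long chains, 13 were measured. These 13 were ACSBG, ACSM, ACSS and ACSF genes. Only 3 of the 13 entered the fit of genes above the median level, so dim signals limit what could be seen for the others. In MDA-MB-231 0 rose and 0 fell by limma (1 at an unadjusted p under 0.05), with a median log2 change of 0.04 against 0.02 over all genes. In HCC70 1 rose and 0 fell (2 at an unadjusted p under 0.05), with a median of 0.08 against 0.01 over all genes. The riser was ACSF2, a mitochondrial medium-chain acyl-CoA synthetase, at 0.53 ± 0.11 (SE, adjusted p = 0.00418), with -0.22 ± 0.11 in MDA-MB-231 (adjusted p = 0.17). Over the alternatives 1 to 2 members rose in HCC70, and in MDA-MB-231 0 to 1 rose and 0 to 1 fell.

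Enzymes that undo or bind the product changed in a few members. Of 13 acyl-CoA thioesterases, all measured, 1 rose and 2 fell in MDA-MB-231 and 2 rose and 1 fell in HCC70, with medians of -0.03 and 0.08. The mitochondrial thioesterase ACOT2 changed by -1.36 ± 0.15 in MDA-MB-231 (SE, limma adjusted p = 2.11e-05) and THEM4 by 0.73 ± 0.095 in HCC70 (adjusted p = 0.000129). In HCC70 ACOT2 changed by -0.47 (adjusted p = 0.0412), a call lost without single arrays (adjusted p up to 0.165). ACOT1, ACOT2 and other thioesterases are close paralogs, so the signal of ACOT2 may hold that of its copies. Of 14 genes for fatty acid and acyl-CoA binding and uptake 6 were measured, of which 0 rose and 2 fell in MDA-MB-231 and 0 changed in HCC70 (2 at an unadjusted p under 0.05). ACBD5, a peroxisomal acyl-CoA binding protein, changed by -0.45 ± 0.10 in MDA-MB-231 (adjusted p = 0.005).

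Oxidation genes moved in both directions. Of 23 mitochondrial fatty acid oxidation genes 8 were measured, of which 1 rose and 2 fell in MDA-MB-231 and 1 rose and 1 fell in HCC70. ETFDH, which passes electrons from fatty acid oxidation to ubiquinone, rose by 0.65 ± 0.090 in MDA-MB-231 (SE, limma adjusted p = 0.00013) and by 0.39 ± 0.090 in HCC70 (adjusted p = 0.00647). HADH, a dehydrogenase of the same pathway, changed by -0.53 ± 0.11 in MDA-MB-231 (adjusted p = 0.00323). Of 12 peroxisomal genes 4 were measured, and 1 rose and 1 fell in MDA-MB-231 while 2 rose and 0 fell in HCC70. CROT, the peroxisomal carnitine octanoyltransferase, had opposite changes, -1.18 ± 0.16 in MDA-MB-231 (adjusted p = 9.73e-05) and 0.74 ± 0.16 in HCC70 (adjusted p = 0.00427). Its HCC70 signal was dim, with means of 4.77 in JQ1 and 4.03 in Control. The MDA-MB-231 means were 4.87 in JQ1 and 6.05 in Control. The lower quartiles of the arrays ran from 4.73 to 4.87, so dim signal limits what the CROT rise in HCC70 shows. The thiolase ACAA1 rose by 0.51 ± 0.088 in MDA-MB-231 (adjusted p = 0.000784). In HCC70 ACAA1 rose by 0.33 (adjusted p = 0.0164), a call lost without single arrays (adjusted p up to 0.0703).

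Acyltransferases place the acyl chain on glycerol or on lysophospholipids. Of 19 glycerolipid genes 11 were measured, of which 1 rose and 3 fell in MDA-MB-231 and 3 rose and 3 fell in HCC70, with medians of -0.04 and 0.18. GPAT3, which starts glycerolipid synthesis, changed by -1.11 ± 0.11 in MDA-MB-231 (SE, limma adjusted p = 8.56e-06) and by 0.18 ± 0.11 in HCC70 (adjusted p = 0.328). DGAT1, which completes triglycerides, rose by 1.18 ± 0.081 in HCC70 (adjusted p = 7.28e-07), and the monoacylglycerol acyltransferase MOGAT2 changed by -1.56 ± 0.092 there (adjusted p = 2.31e-07). In MDA-MB-231 DGAT1 rose by 0.30 (adjusted p = 0.0155), a call lost when leaving out 1 array (adjusted p up to 0.0569).

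Of 13 phospholipid remodelling genes 9 were measured, of which 0 rose and 4 fell in MDA-MB-231 and 0 rose and 3 fell in HCC70, with medians of -0.19 and -0.07. MBOAT1, a lysophospholipid acyltransferase, changed by -2.02 ± 0.14 in MDA-MB-231 (SE, limma adjusted p = 4.1e-07) and by -0.86 ± 0.14 in HCC70 (adjusted p = 0.000832). LCLAT1, which remodels cardiolipin and phosphatidylinositol, changed by -1.26 ± 0.11 in HCC70 (adjusted p = 6.57e-06) and by -0.83 ± 0.11 in MDA-MB-231 (adjusted p = 0.000133).

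Genes linked to ACSL4 through ferroptosis, the death of cells from peroxidised polyunsaturated lipids, were also read. Of 15 listed 9 were measured, of which 3 rose and 1 fell in MDA-MB-231 and 4 rose and 2 fell in HCC70, with medians of 0.16 and 0.24. Over all genes 27.8% and 21.7% were called in these lines. GPX4, the peroxidase that protects cells from ferroptosis, rose by 0.65 ± 0.072 in MDA-MB-231 (SE, limma adjusted p = 2.09e-05) and by 0.96 ± 0.072 in HCC70 (adjusted p = 1.39e-06). GCH1, which makes the protective cofactor tetrahydrobiopterin, rose by 1.43 ± 0.090 in HCC70 (adjusted p = 3.85e-07), and KEAP1, the inhibitor of the stress factor NFE2L2, changed by -0.52 ± 0.12 there (adjusted p = 0.00626). In MDA-MB-231 KEAP1 changed by -0.39 (adjusted p = 0.0277), a call lost without single arrays (adjusted p up to 0.114). The list did not move one way by role: the lipoxygenase ALOX5, which oxidises polyunsaturated lipids, also rose in HCC70 (0.95 ± 0.072, adjusted p = 1.51e-06), and the protective dehydrogenase DHODH fell there by 0.48 ± 0.13 on the log2 scale (adjusted p = 0.0178), a call lost in 5 of the alternatives. ALOX5 in MDA-MB-231 and NCOA4, which releases stored iron, in both lines were the remaining risers, at 0.22 to 0.24 and with adjusted p of 0.0351 to 0.0419. These calls did not hold with the replicate block (0.0544 to 0.0651). When leaving out 1 array, the ALOX5 call held in 3 of 12 fits (adjusted p up to 0.124). That of NCOA4 held in 3 of 12 in MDA-MB-231 (up to 0.149) and 6 of 12 in HCC70 (up to 0.0983). ALOX5, NCOA4 and DHODH were picked after their values were seen.

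Of 19 lipid-sensing transcription factors 9 were measured, of which 1 rose and 4 fell in MDA-MB-231 and 0 rose and 2 fell in HCC70, with medians of -0.23 and -0.10. PPARG, the nuclear receptor of fat cell formation, changed by -1.24 ± 0.13 in MDA-MB-231 (SE, limma adjusted p = 1.36e-05), where KLF5 rose by 0.60 ± 0.10 (adjusted p = 0.000567). In HCC70 PPARG changed by -0.44 (adjusted p = 0.0307), a call lost without single arrays (adjusted p up to 0.119). PPARD, a related receptor, changed by -0.55 ± 0.090 in HCC70 (adjusted p = 0.000707).

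**Figure D4:**
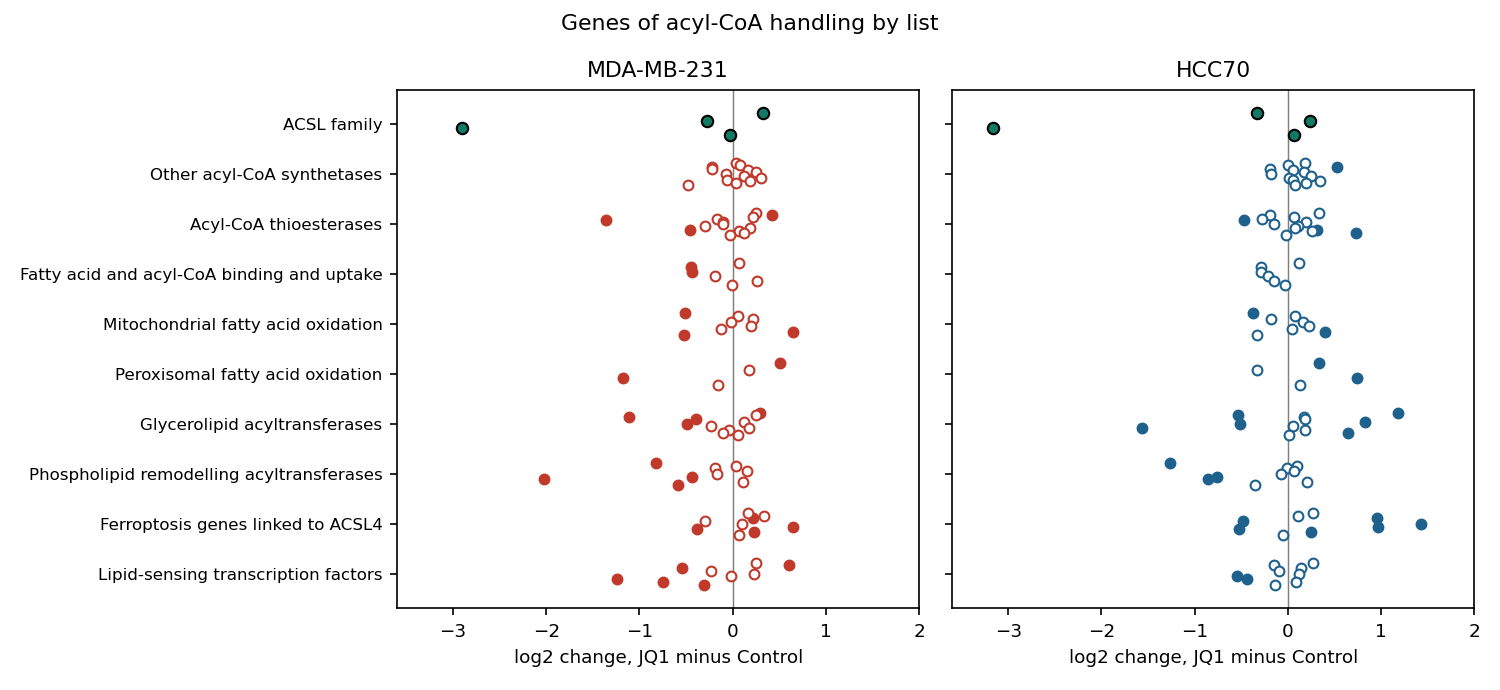
Log2 change, JQ1 minus Control (horizontal axis), of each measured gene of the acyl-CoA lists, with 1 point per gene, MDA-MB-231 at left and HCC70 at right, filled points for genes past the limma threshold and green for the ACSL family, which is not marked by test. ACSL5 lies below -2.8 in both lines, and the other ACSL genes lie among the bulk of the genes of the other lists.

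Known readouts of BET inhibition changed in both lines. BRD2, a BET gene itself, rose by 0.86 ± 0.089 in MDA-MB-231 (SE, limma adjusted p = 1.11e-05) and by 1.22 ± 0.089 in HCC70 (adjusted p = 1.24e-06). MYC fell by 0.41 ± 0.10 on the log2 scale in MDA-MB-231 (adjusted p = 0.00759) and by 0.92 ± 0.10 in HCC70 (adjusted p = 3.05e-05). HEXIM1 rose by 0.59 in MDA-MB-231 and by 1.11 in HCC70, a call that ended in MDA-MB-231 without the same 3 arrays (adjusted p = 0.050) and in HCC70 with the mean of its clusters (log2 change 0.28, adjusted p = 0.37).

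Markers of the lines were read beside the ACSL changes. Of 6 mesenchymal markers 4 were measured, and their summed log2 level was 40.3 to 40.9 in MDA-MB-231 JQ1 and 41.9 to 42.5 in MDA-MB-231 Control, and 21.2 to 22.1 in HCC70 JQ1 and 26.4 to 26.5 in HCC70 Control. The change lay in FN1, which changed by -1.40 in MDA-MB-231 (limma adjusted p = 1.93e-07) and -3.12 in HCC70 (1.63e-09), and in VIM, which changed by -1.72 in HCC70 (4.69e-07), while AXL and ZEB1 passed in neither line. Of 8 epithelial markers 7 were measured, with sums of 47.4 to 48.6 in MDA-MB-231 JQ1 and 47.8 to 49.4 in MDA-MB-231 Control, and of 69.2 to 70.1 in HCC70 JQ1 and 68.2 to 68.5 in HCC70 Control. The MDA-MB-231 sums overlap and hold opposite changes, since EPCAM changed by -1.74 (adjusted p = 4.28e-07) while KRT18, KRT19 and KRT8 rose by 0.59, 0.41 and 0.37. The call of KRT8 there was lost with the replicate block (adjusted p = 0.0537). It held in 9 of 12 fits that left out 1 array (adjusted p up to 0.0985). In HCC70 these 3 keratins rose and 0 of the 7 fell. The part of these shifts in the ACSL changes was not tested.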

How the data were processed

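Total RNA of 12 samples, 3 in each of 4 groups, was measured on Human Gene 2.0 ST arrays. The deposited values are log2 signals of 53617 transcript clusters, and RMA, oligo and limma are named without versions per the submitters' processing notes. No source used here gives the genome build of the array annotation. RMA compresses differences of dim genes, and the number of arrays limits the precision of every value. A single symbol was annotated for 16098 clusters, several for 0 and no symbol for 37519. For 779 genes with more than 1 cluster the brightest was kept, leaving 14884 genes, and 0 columns of other series were present. Each ACSL gene measured had 1 cluster.

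All 12 arrays entered one group-means fit (lmFit and eBayes of limma 3.58.1, run in R 4.3.3). The contrasts were JQ1 minus Control in each line, their difference (HCC70 minus MDA-MB-231), and HCC70 Control minus MDA-MB-231 Control. Tests were two-sided, with Benjamini-Hochberg adjustment over all genes and a threshold of 0.05. Simulated data with known changes served to check the fit.

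The members and lists were chosen with earlier results of these data known. The text names the ACSL genes, up to 2 called members of each list in each direction of each JQ1 comparison, cut down after the values were seen to 1 whose call held in all alternatives, the BET readouts, the 5 genes nearest to ACSL5 and 3 nearest to other members that vary by at least 1, the neighbours of ACSL5, and genes that fell by at least 2 in both lines. Line markers, ALOX5, NCOA4, DHODH and genes added in the closing section were named after their values were seen.

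Replicate numbers come from the labels' titles. In MDA-MB-231 the deviations of same-numbered JQ1 and Control arrays correlated at 0.155, 0.121 and 0.362. Arrays of different numbers correlated at -0.250 to 0.121 there. In HCC70 the deviations of same-numbered arrays correlated at -0.059, 0.015 and 0.070, so no deviation shared by number was seen there. Whether these arrays were paired was not established. The main fit had no pair term, and the numbers entered as pairs only in the replicate block. Alternatives were a replicate block, each line alone, a variance trend, centring, quantile normalization, all clusters, cluster means, genes above the median level, and each array left out. After seeing the data, a fit that dropped replicate 3 of all groups but HCC70 Control was added. These 3 arrays had lower upper quartiles than the other replicates of their groups.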

Additional observations from a re-analysis of the deposited data

Results flagged for a closer look

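Each gene here was noted because its JQ1 effect differed between the lines by the interaction test of limma (HCC70 minus MDA-MB-231, adjusted over all 14884 genes, of which 15% were called). With 3 arrays in a group no array was tested as standing apart from its group. Among the ACSL genes the difference was -0.65 for ACSL1 (adjusted p = 0.00285), with -0.33 in HCC70 and 0.32 in MDA-MB-231, and 0.51 for ACSL4 (adjusted p = 0.00958), with 0.23 in HCC70 and -0.28 in MDA-MB-231.

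Of 107 measured genes of the other lists, line and cell markers included, 26 were called, 17 with a positive and 9 with a negative difference. The positive differences were 2.00 for EPCAM, 1.92 for CROT, 1.33 for GCH1, 1.29 for GPAT3, 1.16 for MBOAT1, 0.89 for ACOT2, 0.88 for DGAT1, 0.84 for SREBF1, 0.80 for PPARG, 0.77 for ACOT9, 0.75 for ACSF2, 0.75 for SOAT1, 0.74 for ALOX5, 0.71 for LPIN2, 0.68 for MLX, 0.61 for THEM4 and 0.59 for LPIN1. The negative ones were -1.87 for VIM, -1.74 for MOGAT2, -1.72 for FN1, -0.78 for DGAT2, -0.75 for KLF5, -0.65 for CD14, -0.61 for ACOT11, -0.53 for PPARD and -0.51 for MYC. Their adjusted p lay between 3.64e-06 for MOGAT2 and 0.0332 for ACOT11. As for ACSL1, opposite changes past the threshold in both lines were seen for 2 of them. These were CROT (0.74 in HCC70 and -1.18 in MDA-MB-231) and ACOT9 (0.31 and -0.46 in the same order). The share of all genes with such opposite changes is not given, so this count is a description. CROT was dim in HCC70, with means of 4.77 in JQ1 and 4.03 in Control. The ACOT9 rise in HCC70 was lost in 5 alternatives, among them the replicate block (adjusted p = 0.0513).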

How the results depend on the processing

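The ACSL5 change lay between -2.95 and -2.83 in MDA-MB-231 and between -3.28 and -3.07 in HCC70 over 21 alternatives each. The differences of the effects and between the Control groups kept their calls for ACSL1 and ACSL4 in all 20 alternatives, with the replicate block among them. Of the tested values of the ACSL genes under alternatives, which leave out the JQ1 values of ACSL5, 242 kept their direction and their side of the threshold, 12 lost a call and 6 gained one, and both reversals were of ACSL6 in MDA-MB-231, to 0.034 after centring and 0.017 without MDA-MB-231 JQ1 replicate 2 (-0.106 to 0.017 when leaving out 1 array). The ACSL4 fall in MDA-MB-231 also missed the threshold with the line fitted alone (adjusted p = 0.0758), under quantile normalization (0.0643), over all clusters (0.0598) and without the 3 arrays numbered 3 that had lower upper quartiles (0.114). Over all clusters, with more features tested, 7496 were called in MDA-MB-231, 4984 in HCC70 and 15776 between the Control groups, in place of 4139, 3229 and 7000. Leaving out 1 array gave 3355 to 4236 calls in MDA-MB-231, 2506 to 3359 in HCC70, 1748 to 2376 for the difference of the effects and 6383 to 7100 between the Control groups. The replicate block gave 4210 calls in MDA-MB-231 and 3236 in HCC70, 7241 between the Control groups and 2171 for the difference of the effects. The block changed no call of an ACSL gene. The share of calls that were lower was 61.2% in MDA-MB-231, against 48.9% after centring and 48.6% after quantile normalization. In HCC70 it was 57.7%, against 43.9% and 50.4%. ACSL6 had no value among genes above the median level. Dim signals limit what could be seen for ACSL6.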
